A study of Mus musculus with 6 samples.

Results

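Fatty acid oxidation and the genes that peroxisome proliferator-activated receptors (PPARs) switch on were described in the mouse aorta through 34 named genes. Each gene was read from the probe sets that the platform annotation gives to it alone, and the brightest probe set on average over the arrays was kept. This gave values for 32 of the 34 genes, out of 22184 genes read in the same way. All 32 passed a filter on dim genes and were tested among 18008 genes. The only listed probe set for Cpt1b also carries other genes, and none is listed for Acsl1, so both were not analysed here. Samples 11, 15 and 19 were aortas of eNOS-deficient mice, which lack the endothelial nitric oxide synthase encoded by Nos3, and samples 2, 3 and 5 were aortas of wild-type mice of the same age. The allele, strain, sex, age and treatment are not stated by the labels, nor is it said whether a sample is 1 animal or a pool. The p-values therefore measure only the spread between these samples.

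Fatty acids enter cells through carriers such as CD36, are joined to coenzyme A, and cross into mitochondria on carnitine. There a repeated cycle of reactions shortens the chain and passes electrons to the respiratory chain. PPARs are nuclear receptors that bind fatty acids, pair with retinoid X receptors and raise the transcription of many genes of this pathway. Brown fat, which surrounds the mouse aorta, and striated muscle are rich in these enzymes.

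PPAR and its partner bind DNA at a direct repeat of AGGTCA with 1 base between the repeats. RefSeq promoter windows (GRCm38.p6, 250 bases before to 50 bases after a gene's start) were found for 30 of the 34 genes, and 33 windows were searched on both strands for AGGTCANAGGTCA with at most 2 mismatches over its 12 fixed letters. Such a match lay in 4 windows (12.1%), against 3.86% of all 32851 windows and 3.26% of the windows of tested genes. No window of these genes held it with 1 mismatch or none. Each of the 4 matches had 2 mismatches. Those in Cd36, Ucp3 and Etfa are shown because they lie before the gene's start, and because Cd36 and Ucp3 are among the genes with the larger differences below. Each stretch is written 5′ to 3′ on the gene's strand, with the match in capitals.
Cd36, chr5:17835927-17835979, minus strand: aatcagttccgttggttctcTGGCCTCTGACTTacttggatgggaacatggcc
Ucp3, chr7:100472920-100472972, plus strand: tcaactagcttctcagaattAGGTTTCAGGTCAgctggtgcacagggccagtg
Etfa, chr9:55512288-55512340, minus strand: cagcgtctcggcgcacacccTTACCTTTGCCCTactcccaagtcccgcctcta
In Cd36 and Etfa the repeat reads on the strand opposite to the gene. The match in Slc25a20 begins 7 bases after the start and is not shown. A single AGGTCA, which the repeat contains, lay in 15.2% of the windows of these genes, against 16.3% of all windows and 13.7% of the windows of tested genes. A match of letters is a description of the sequence and says nothing about binding in the aorta.

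The arrays gave log2 signals after RMA, a normalization that brings the overall signal of the arrays together. Every difference below is on this log2 scale, eNOS-deficient minus wild type. Array medians were 5.55 to 5.59 in eNOS-deficient samples and 5.61 to 5.68 in wild-type aorta, and Pearson's r between arrays was 0.947 to 0.983 (over probe sets, not independent measurements). Nos3, the targeted gene, measured 7.13, 7.39 and 7.27 in eNOS-deficient samples and 7.99, 7.88 and 7.36 in wild-type aorta. Wild type 5 thus lay within the eNOS-deficient range. Where its probes lie relative to the deleted part is not stated, so this signal is no check of the labels. Smooth muscle markers were bright on all 6 arrays (means of 8 genes 9.75 to 10.05 in eNOS-deficient and 9.48 to 9.74 in wild type). Brown fat markers were bright too, with Ucp1, the brown fat uncoupling protein, at 13.02 to 13.12 in eNOS-deficient and 12.91 to 13.04 in wild type.

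Wild type 5 stood apart from wild type 2 and 3. Its 11 squamous epithelium markers averaged 8.94, against 4.96 to 5.04 on the eNOS-deficient arrays and 6.12 and 5.28 on wild type 2 and 3. On the same array, fatty acid oxidation and PPAR target genes were low: it held the lowest of the 6 values for 21 of 32 genes (65.6%), against 32.7% of all genes tested. The median gene of the 32 lay 0.23 log2 below the mean of wild type 2 and 3 there (all genes, 0.070 below). The part of the epithelium signal in this was not tested by itself, though its markers were used as a covariate for the genotype difference. Results that rest on wild type 5 are therefore given with and without it. The genotypes also differed in 3 Y-linked genes, whose mean was 7.76 and 4.71 on eNOS-deficient 11 and 15, higher still on eNOS-deficient 19, and 3.63, 3.54 and 3.47 on wild type 2, 3 and 5. Genotype and whatever set this Y-linked signal cannot be told apart in these samples.

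Most genes of the pathway had a slightly higher mean in eNOS-deficient aorta, and none passed the test over all genes. With limma and Benjamini-Hochberg adjustment, 0 of 32 had an adjusted p under 0.05 (all genes, 0.0111% higher and 0.0167% lower). The difference was positive for 25 of 32 genes (78.1%), against 56.6% of all genes, and its median was 0.12, against 0.036. These genes are brighter than most: among the 13057 genes left by a stricter filter at the 50th percentile, 65.9% were positive with a median of 0.081, against 24 of 31 and 0.13 here. At an unadjusted p under 0.05, 5 genes were higher (15.6%), against 7.86% of all genes, and 0 were lower, against 3.72%. Under the stricter filter the counts were also 5 and 0, against 10.6% and 2.14% of all genes. With arrays centred on their medians these counts were again 5 and 0, against 11.3% and 2.15% of all genes. The 3 eNOS-deficient values lay wholly above the 3 wild-type values for 9 genes (28.1%), against 13.1% of all genes, and wholly below for 1 gene (3.12%), against 6.47%. Under the stricter filter these numbers were again 9 and 1, against 16.8% and 3.94% of all genes. For these 10 genes lack of overlap alone fixes the two-sided exact permutation test at p = 0.1, the smallest that 3 arrays against 3 allow. These shares are descriptions of a list chosen with results of these data known, and they carry no test.

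**Figure D1:**
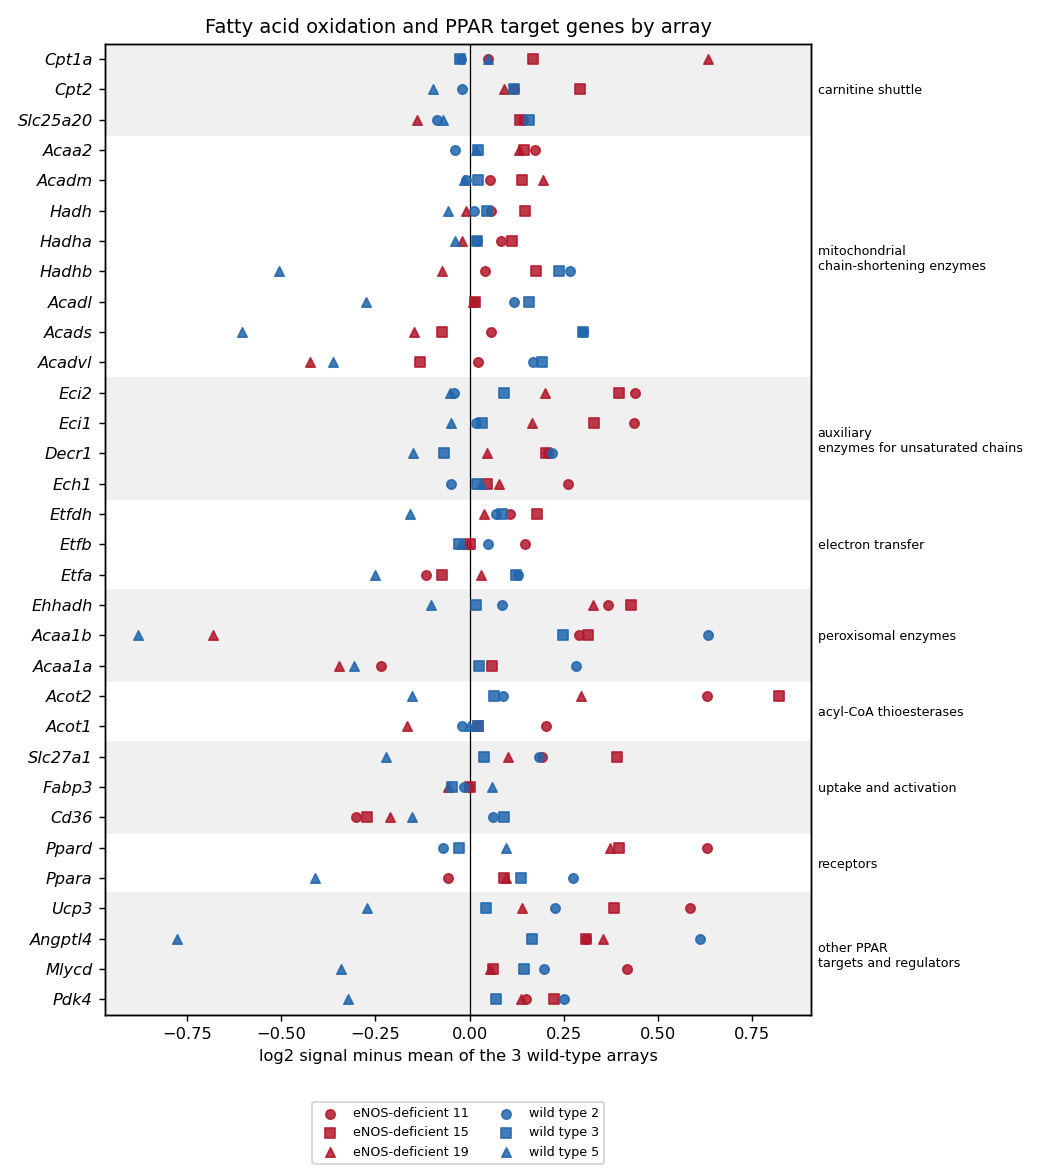
Log2 signal of each gene on each array, minus the mean of the 3 wild-type arrays (x axis), with genes grouped by role down the page; filled red symbols are eNOS-deficient 11, 15 and 19 and blue symbols wild type 2, 3 and 5. Wild type 5 (blue triangle) is the lowest array for 21 of 32 genes, and for Ppard, Acot2, Ehhadh, Eci1 and Eci2 every red symbol lies right of every blue one.

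Averaged over the 32 genes, the arrays stood at 10.19, 10.19 and 10.05 in eNOS-deficient 11, 15 and 19 and at 10.14, 10.09 and 9.82 in wild type 2, 3 and 5. Wild type 2 and 3 lay between the eNOS-deficient arrays, so the groups overlapped. Without wild type 5 the median difference of the genes was 0.032 (all genes, 0.00126), and 22 of 32 were positive. Then 4 genes were higher at an unadjusted p under 0.05 (all genes, 8.93%) and 2 lower, Acads and Cd36 (all genes, 5.93%). The groups did not overlap for 9 higher genes (all genes, 19.1%) and for 7 lower genes in place of 1 (all genes, 16.2%).

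Of the receptors, Ppard had the smallest p of the 32 genes and Ppara did not differ beyond its spread. PPAR delta, the product of Ppard, is the receptor found in most tissues and drives fatty acid use in muscle. Ppard measured 8.58, 8.35 and 8.32 in eNOS-deficient aorta, against 7.88, 7.93 and 8.05 in wild type. All eNOS-deficient arrays lay above all wild-type arrays. The difference was 0.47 (standard error 0.13, 95% interval 0.17 to 0.76, a fold of 1.38), with an unadjusted p of 0.00715 and a limma adjusted p = 0.289, and it was 0.51 without wild type 5. PPAR alpha, the product of Ppara, is the main fasting receptor of liver, heart and brown fat. Ppara measured 9.07, 9.22 and 9.22 in eNOS-deficient aorta, against 9.40, 9.26 and 8.72 in wild type. The wild-type arrays lay on both sides of the eNOS-deficient ones (difference 0.043, interval -0.40 to 0.49), and without wild type 5 the difference was -0.16.

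The largest difference was that of Acot2, a mitochondrial thioesterase that releases free fatty acids from coenzyme A and is a known PPAR alpha target in liver and heart. Acot2 measured 9.87, 10.07 and 9.54 in eNOS-deficient aorta, against 9.33, 9.31 and 9.09 in wild type. The groups did not overlap, and eNOS-deficient 19 lay closest to wild type. The difference was 0.58 (standard error 0.16, interval 0.20 to 0.97, unadjusted p = 0.00883, limma adjusted p = 0.294). Its cytosolic paralogue Acot1, a neighbour on chromosome 12 with a very similar sequence, measured 4.86, 4.68 and 4.49, against 4.64, 4.68 and 4.66, close to the filter level of 4.38. The Acot1 difference was 0.020, and whether probes of this pair also read the other gene was not tested.

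Auxiliary enzymes, which move or remove double bonds so that unsaturated chains can enter the cycle, were all positive. Their differences had a median of 0.23, and 3 of 4 were higher without overlap, against 13.1% of all genes. Eci1, the mitochondrial enoyl-CoA isomerase, measured 11.46, 11.35 and 11.19 in eNOS-deficient aorta, against 11.04, 11.06 and 10.97 in wild type. This is a difference of 0.31 (interval 0.027 to 0.59, unadjusted p = 0.0358, limma adjusted p = 0.399). Eci2, a second isomerase found in peroxisomes and mitochondria, measured 8.57, 8.53 and 8.33, against 8.09, 8.23 and 8.08. Its difference was 0.35 (interval 0.058 to 0.63, unadjusted p = 0.0247, limma adjusted p = 0.372). For both isomerases eNOS-deficient 19 was the lowest of its group and still above every wild-type array. Ech1, a dienoyl-CoA isomerase, had a difference of 0.13 without overlap, although eNOS-deficient 15 (11.86) and wild type 5 (11.85) all but touched. Decr1, the dienoyl-CoA reductase, had a difference of 0.15 with overlap (0.077 without wild type 5).

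Among the peroxisomal enzymes, Ehhadh had groups without overlap and the thiolases did not. Ehhadh, the bifunctional enzyme of the peroxisomal cycle and a classical PPAR alpha target in rodent liver, measured 8.75, 8.81 and 8.71 in eNOS-deficient aorta, against 8.47, 8.40 and 8.28 in wild type. Both groups were tight and did not overlap. The difference was 0.37 (standard error 0.11, interval 0.11 to 0.64, unadjusted p = 0.0125, limma adjusted p = 0.317) and 0.32 without wild type 5. The thiolases Acaa1a and Acaa1b, near-identical copies on chromosome 9, catalyse the last step of the peroxisomal cycle. Acaa1b measured 7.28, 7.31 and 6.31 in eNOS-deficient aorta, against 7.63, 7.24 and 6.11 in wild type. One array of each genotype, eNOS-deficient 19 and wild type 5, lay about 1 log2 unit low, and the difference of -0.025 had an interval of -1.03 to 0.98. Acaa1a ran from 6.90 to 7.31, against 6.94 to 7.53, a difference of -0.17. Without wild type 5 the differences were -0.47 (Acaa1b) and -0.33 (Acaa1a), and here too probes that read both copies were not tested for.

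**Figure D2:**
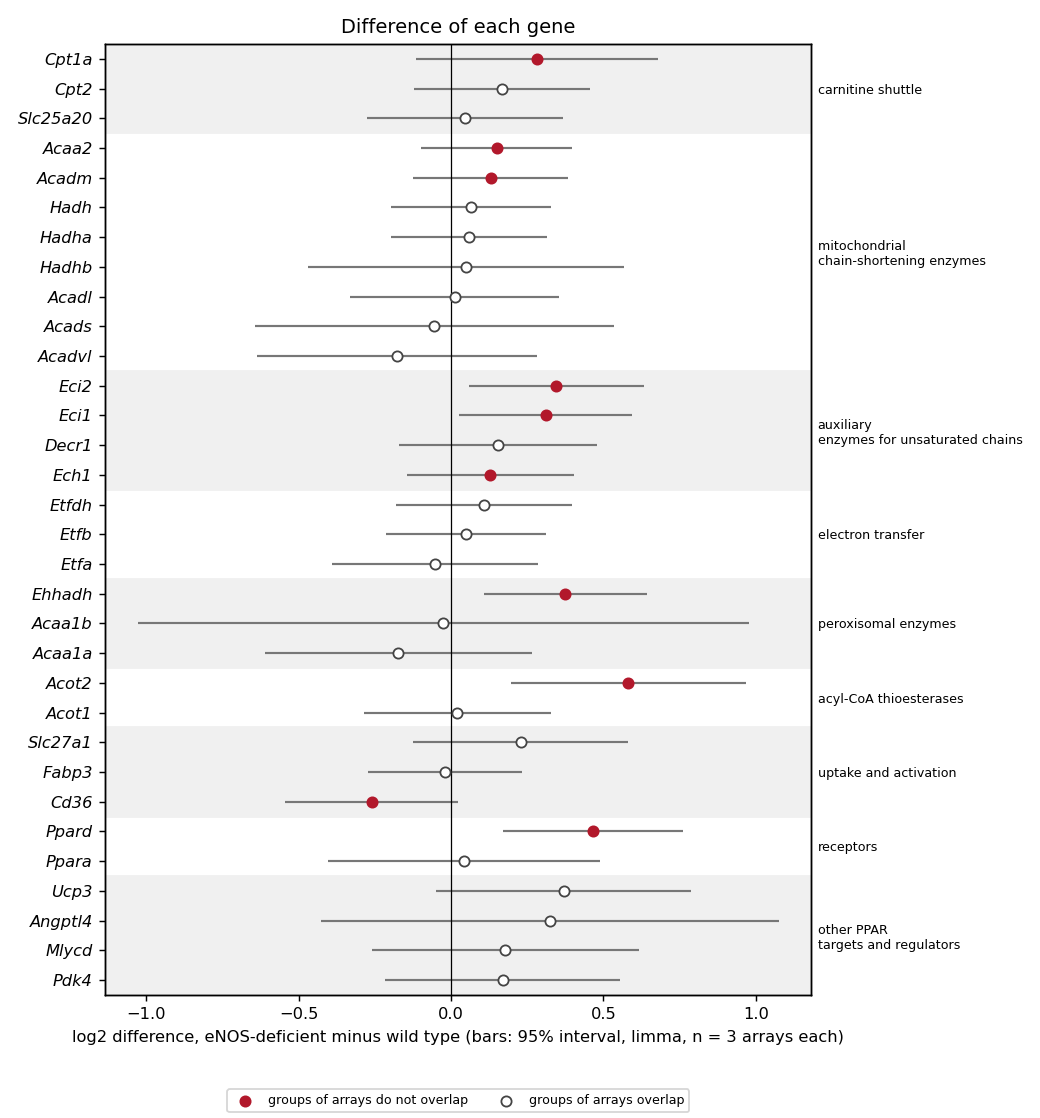
Log2 difference of each gene, eNOS-deficient minus wild type, with its 95% interval from limma (n = 3 arrays each); filled red points are genes whose groups of arrays do not overlap, open points those whose groups overlap. Intervals of Ppard, Acot2, Ehhadh, Eci1 and Eci2 lie above 0, Cd36 is the only gene lower without overlap, and Acaa1b and Angptl4 have the widest intervals.

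Fatty acid entry held the one gene, Cd36, that was lower without overlap on all 6 arrays. CD36, the membrane carrier for long-chain fatty acids on adipocytes, muscle, macrophages and capillary endothelium, was read from Cd36 at 12.06, 12.09 and 12.15 in eNOS-deficient aorta, against 12.42, 12.45 and 12.21 in wild type. All eNOS-deficient arrays lay below all wild-type arrays. The difference was -0.26 (interval -0.54 to 0.022, unadjusted p = 0.0655, limma adjusted p = 0.464). Without wild type 5 it was -0.34 (interval -0.60 to -0.079, unadjusted p = 0.0186, limma adjusted p = 0.244), and with arrays centred on their medians the groups overlapped. Slc27a1, the transporter FATP1 of muscle and fat, ran from 9.39 to 9.68 in eNOS-deficient samples and 9.06 to 9.47 in wild-type aorta (difference 0.23, or 0.12 without wild type 5). Fabp3, the fatty acid binding protein of heart and muscle, had a difference of -0.020 on its brightest probe set and of 0.28 on a dimmer one, so its probe sets disagreed.

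In the carnitine shuttle all 3 measured genes had positive differences. Cpt1a, the acyltransferase that sets the rate of entry and that malonyl-CoA inhibits, measured 8.56, 8.68 and 9.14 in eNOS-deficient aorta, against 8.49, 8.48 and 8.56 in wild type. The groups did not overlap, yet eNOS-deficient 11 and wild type 5 were all but level and eNOS-deficient 19 was well above the rest. The difference was 0.28 (interval -0.11 to 0.68, unadjusted p = 0.137). Cpt2, which returns the chain to coenzyme A inside the mitochondrion, had a difference of 0.17 with overlap. Slc25a20, the carrier that exchanges acylcarnitine for carnitine, had one of 0.046.

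Enzymes of the mitochondrial cycle were close between the genotypes, with a median difference of 0.054 over 8 genes, of which 6 were positive. Without wild type 5 the median was -0.045, 4 of 8 were positive (all genes, 50.2%) and 4 were lower without overlap (all genes, 16.2%). Acadm, the medium-chain dehydrogenase, measured 12.94, 13.02 and 13.08 in eNOS-deficient aorta, against 12.88, 12.91 and 12.87 in wild type. Acaa2, the mitochondrial thiolase, measured 12.57, 12.54 and 12.53, against 12.36, 12.42 and 12.42. Neither overlapped between groups, with differences of 0.13 and 0.15 and intervals that include 0. The other dehydrogenases looked different. Acads, for short chains, measured 10.48, 10.35 and 10.28 in eNOS-deficient aorta, against 10.73, 10.73 and 9.82 in wild type. Its difference was -0.055 with all arrays and -0.36 without wild type 5 (interval -0.64 to -0.074, unadjusted p = 0.0214, limma adjusted p = 0.257). Acadvl, for very long chains, measured 10.78, 10.63 and 10.33, against 10.93, 10.95 and 10.40, a difference of -0.18 and of -0.36 without wild type 5. Acadl, for long chains, measured 12.25 on each eNOS-deficient array and 12.35, 12.39 and 11.96 in wild type. Its difference was 0.012 with wild type 5 and -0.13 without it.

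Hadha and Hadhb encode the alpha and beta subunits of the trifunctional protein, which carries out the later steps for long chains, and they start head to head on chromosome 5. The starts lie 273 bases apart, so their promoter windows share 228 bases, chr5:30155003-30155230 (GRCm38.p6, plus strand), shown because both genes are transcribed away from it, Hadhb to the right and Hadha to the left.
Hadha and Hadhb: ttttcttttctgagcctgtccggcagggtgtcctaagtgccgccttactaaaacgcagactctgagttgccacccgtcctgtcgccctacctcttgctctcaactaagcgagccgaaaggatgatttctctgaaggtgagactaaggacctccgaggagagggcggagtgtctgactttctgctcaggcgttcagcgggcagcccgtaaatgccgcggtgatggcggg
Hadha measured 12.50, 12.53 and 12.39 in eNOS-deficient aorta, against 12.43, 12.43 and 12.38 in wild type, a difference of 0.060. Hadhb measured 7.92, 8.05 and 7.81, against 8.14, 8.12 and 7.37, a difference of 0.049 that became -0.20 without wild type 5. On wild type 5 Hadhb lay 0.76 below the mean of wild type 2 and 3 and Hadha 0.057 below it. Hadh, the dehydrogenase for shorter chains, had a difference of 0.064. The electron transfer genes, which hand electrons from the dehydrogenases to ubiquinone, had differences of 0.11 (Etfdh), 0.048 (Etfb) and -0.053 (Etfa), all with overlap. Without wild type 5 Etfdh was 0.029 and Etfa -0.18.

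**Figure D3:**
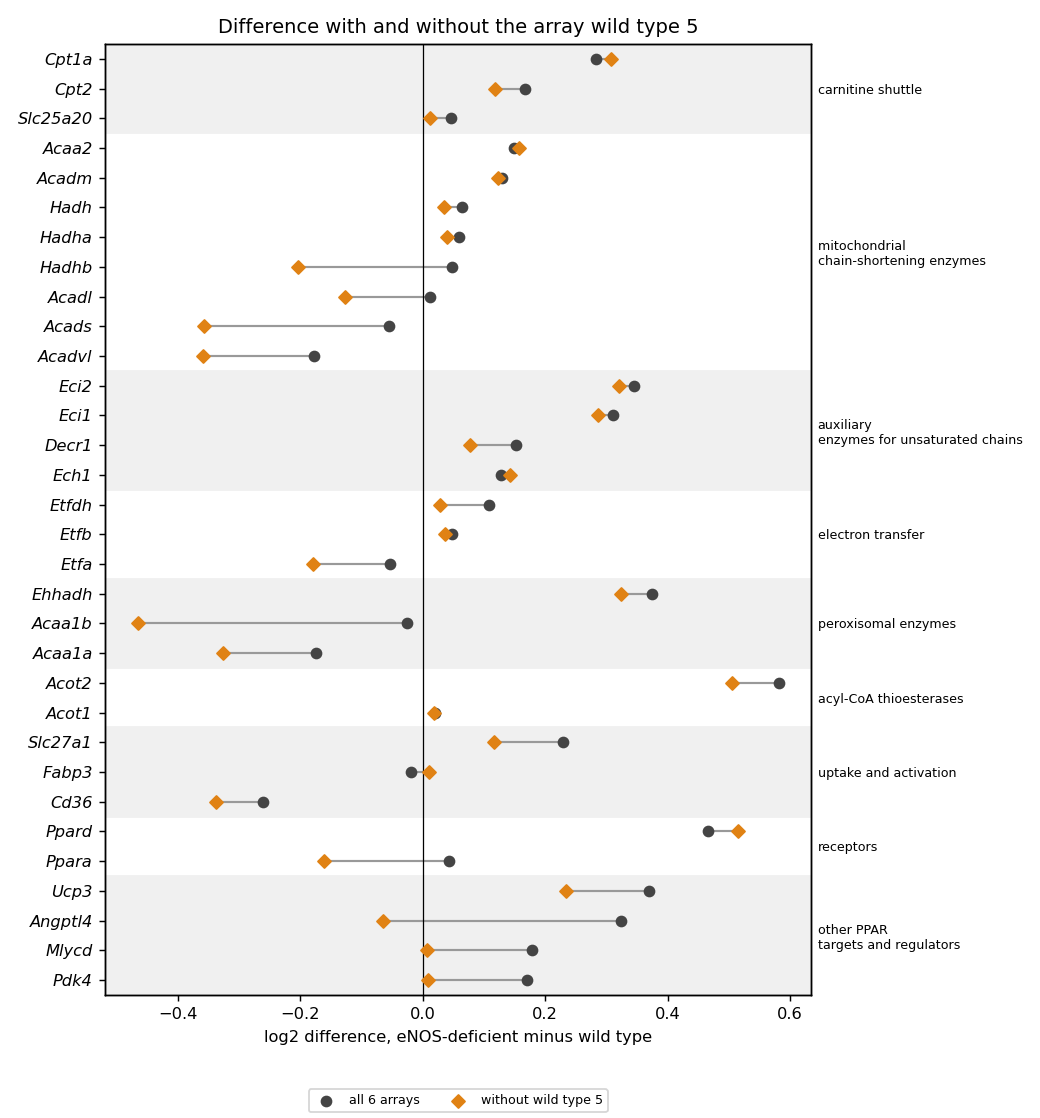
Log2 difference of each gene, eNOS-deficient minus wild type, from all 6 arrays (grey circles) and without wild type 5 (orange diamonds), with genes grouped by role. Ppard, Acot2, Ehhadh, Eci1 and Eci2 move by under 0.1, while Angptl4, Acads, Acaa1b and Hadhb move by 0.25 or more toward lower values.

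The remaining PPAR targets and regulators, Ucp3, Pdk4, Angptl4 and Mlycd, had positive differences with overlap. Ucp3, the uncoupling protein of muscle and brown fat, measured 9.20, 8.99 and 8.75 in eNOS-deficient aorta, against 8.84, 8.65 and 8.34 in wild type. Its difference was 0.37 (interval -0.048 to 0.79, unadjusted p = 0.0749, limma adjusted p = 0.481) and 0.23 without wild type 5. Pdk4, the kinase that shuts pyruvate out of oxidation, measured 12.59, 12.67 and 12.58, against 12.70, 12.51 and 12.12. Angptl4, a secreted inhibitor of lipoprotein lipase, measured 9.27, 9.27 and 9.32, against 9.58, 9.13 and 8.19. Both differences rested on wild type 5: Pdk4 was 0.17 with it and 0.0087 without it, and Angptl4 was 0.32 and -0.064. Mlycd, which removes the CPT1 inhibitor malonyl-CoA, was 0.18 with that array and 0.0076 without it.

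Other genes of the pathway were read through lists of oxidation enzymes, PPAR partners, further targets and ketone body enzymes, and none of the 68 measured genes had a limma adjusted p under 0.05. Further oxidation enzymes of mitochondria and peroxisomes were positive for 18 of 22 genes (median difference 0.21), against 56.6% of all genes. At an unadjusted p under 0.05, 5 were higher (all genes, 7.86%) and 0 lower (3.72%), and 9 were higher without overlap (13.1%). Without wild type 5 the median was 0.11 and 16 were positive (all genes, 50.2%). Then 3 were higher (8.93%) and 1 lower (5.93%) at that level. Hsd17b10, a mitochondrial dehydrogenase of short and branched chains, measured 9.15 ± 0.10 in eNOS-deficient samples and 8.68 ± 0.049 in wild-type aorta (SD, n = 3 each), a difference of 0.48 (limma adjusted p = 0.250). Pecr, a peroxisomal enoyl-CoA reductase, measured 7.66 ± 0.060 and 7.18 ± 0.13 in the same order (0.48, limma adjusted p = 0.273). Amacr, a racemase of branched chains, had a difference of 0.33 (limma adjusted p = 0.387). In ketone body use, Acat1, a mitochondrial thiolase, had a difference of 0.33 without overlap, and Oxct1 and Bdh1 had differences of 0.34 and 0.57 with overlap.

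**Figure D4:**
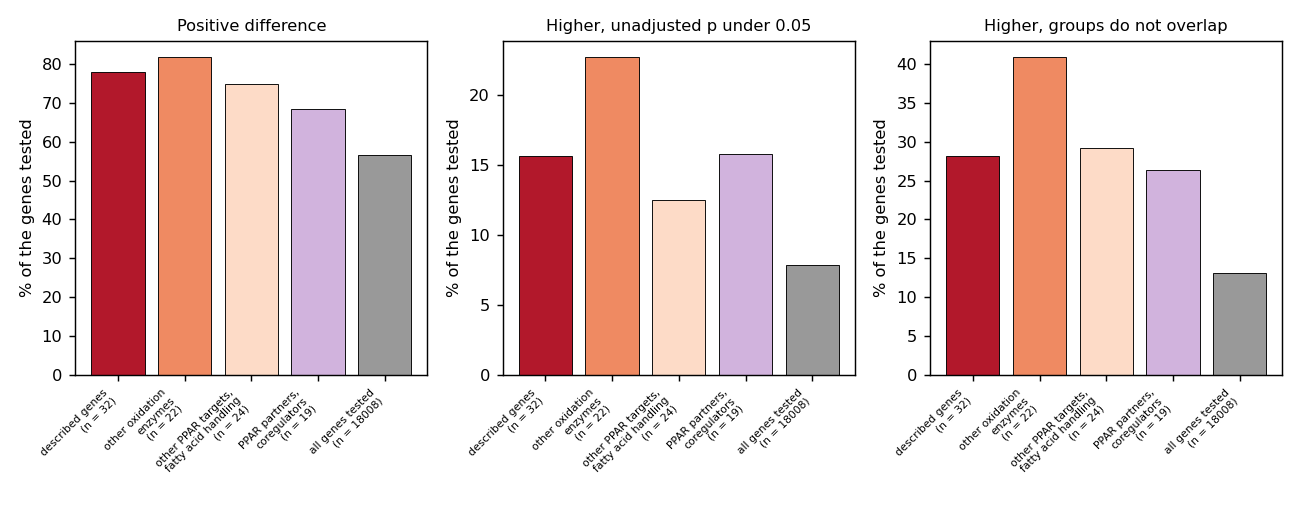
Share of tested genes (y axis, %) with a positive difference, with a higher value at an unadjusted p under 0.05, and with eNOS-deficient arrays wholly above wild type, for the 32 described genes, further lists of the pathway and all 18008 genes. Of the described genes 78.1% were positive, against 56.6% of all genes, and other oxidation enzymes reached 40.9% without overlap, against 13.1%.

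PPAR partners and coregulators were positive for 13 of 19 genes (all genes, 56.6%), with a median difference of 0.061. At an unadjusted p under 0.05, 3 were higher (all genes, 7.86%) and 0 lower (3.72%). Without wild type 5 the median was -0.081 and 8 were positive (all genes, 50.2%). Then 3 were higher (8.93%) and 1 lower (5.93%) at that level. Groups did not overlap for 6 higher genes (all genes, 19.1%) and 6 lower genes (16.2%). Rxrg, a retinoid X receptor of muscle and fat, measured 8.25, 8.08 and 7.99 in eNOS-deficient aorta, against 7.38, 7.73 and 7.61 in wild type (difference 0.54, limma adjusted p = 0.289). Its paralogue Rxra had a difference of 0.34 (limma adjusted p = 0.389). Ppargc1a, the coactivator PGC-1 alpha, measured 10.01, 9.55 and 9.66, against 9.05, 9.17 and 9.54 (difference 0.49, limma adjusted p = 0.387), so that eNOS-deficient 15 lay just above wild type 5. Further PPAR targets and fatty acid handling genes were positive for 18 of 24 (median 0.13). At an unadjusted p under 0.05, 3 lay above wild type (all genes, 7.86%) and 1 below (3.72%). The median was 0.023 without wild type 5, when 15 were positive, and 2 lay above (all genes, 8.93%) and 2 below (5.93%) at that level. Vnn1, pantetheinase, measured 5.89, 5.77 and 6.35, against 5.17, 5.33 and 5.44 (0.69, limma adjusted p = 0.281). Retsat, retinol saturase, had a difference of 0.38 (limma adjusted p = 0.355). Slc27a6, a fatty acid transporter, had one of -0.30 at a signal near the filter level (4.73 ± 0.082 in eNOS-deficient samples and 5.02 ± 0.077 in wild-type aorta, SD, n = 3 each, limma adjusted p = 0.395).

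Marker means of brown fat, smooth muscle, fibroblasts and macrophages each separated the genotypes, higher in eNOS-deficient aorta, and that of squamous epithelium, lower. For smooth muscle the gap was narrow, with eNOS-deficient 15 at 9.75 and wild type 2 at 9.74. The 6 fibroblast markers averaged 9.69 to 9.97 in eNOS-deficient samples and 8.91 to 9.58 in wild-type aorta, a difference of 0.62. Of these lists only brown fat and squamous epithelium were tried as covariates. The 9 brown adipocyte markers averaged 10.64, 10.63 and 10.43 in eNOS-deficient aorta, against 10.26, 10.39 and 10.33 in wild type, without overlap. Dio2, the deiodinase that makes active thyroid hormone in brown fat, had a difference of 0.67 and Ucp1 one of 0.09, while Cidea stood at -0.029. With the brown adipocyte mean as a covariate, the median difference of the 32 genes was 0.023 (all genes, 0.036), and 1 gene was higher at an unadjusted p under 0.05, against 2.71% of all genes. That covariate itself separates the genotypes, and the median standard error over all genes was 0.293 with it and 0.156 without it. Ppargc1a is itself in that marker list. The 7 white adipocyte markers averaged 10.27 to 10.38 in eNOS-deficient samples and 10.12 to 10.51 in wild-type aorta, and 6 genes were higher at an unadjusted p under 0.05 with that mean as a covariate, against 10.8% of all genes. In whole tissue, fewer cells of a type and less RNA per cell cannot be told apart.

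The mean of the skeletal muscle markers overlapped between the genotypes only through wild type 5. Some single markers overlapped without that array too, such as Mylpf (wild type 2 at 8.16, eNOS-deficient 15 and 19 at 7.77 and 7.22). The 12 skeletal muscle markers averaged 11.59, 10.13 and 10.04 in eNOS-deficient 11, 15 and 19 and 10.01, 9.14 and 10.98 in wild type 2, 3 and 5. The difference was 0.54, with 12 of 12 markers positive and 0 at an unadjusted p under 0.05, and it was 1.01 without wild type 5. The array richest in them, eNOS-deficient 11, was the highest of the 6 for 9 of the 32 genes (28.1%; all genes, 20.5%). Wild type 5, the second richest, was the lowest for most. Leaving out both arrays gave a median difference of 0.023, with 3 genes above (all genes, 9.47%) and 3 below wild type (all genes, 6.20%) at an unadjusted p under 0.05. Cardiac muscle markers averaged 6.20 to 7.29 in eNOS-deficient samples and 6.50 to 7.23 in wild-type aorta. Macrophage markers, whose cells carry Cd36 and Ppard too, averaged 8.43 to 8.81 in eNOS-deficient samples and 7.50 to 7.97 in wild-type aorta, with all 8 genes higher at an unadjusted p under 0.05. The 8 endothelial markers averaged 8.61 ± 0.18 in eNOS-deficient samples and 8.72 ± 0.39 in wild-type aorta (SD, n = 3 each), a difference of -0.11, or -0.33 without wild type 5. The part of these cells in the values of Ppard and Cd36 was not tested.

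**Figure D5:**
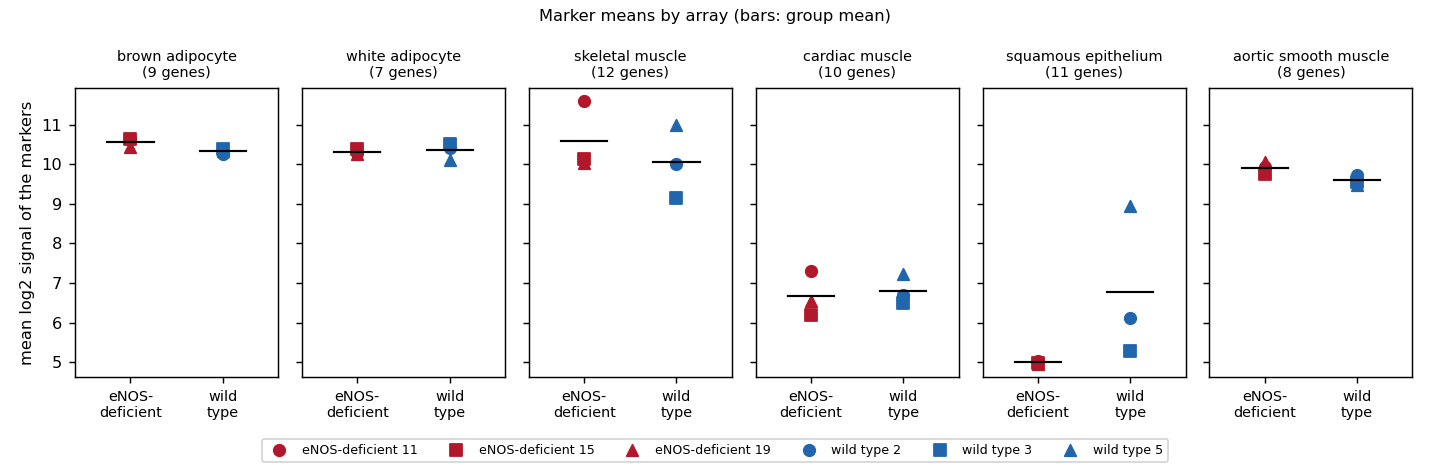
Mean log2 signal of marker genes on each array (y axis), with eNOS-deficient left of wild type in each panel and bars at the group means. Brown adipocyte means separate the genotypes (10.43 to 10.64, against 10.26 to 10.39), skeletal muscle is highest on eNOS-deficient 11 (11.59), and squamous epithelium on wild type 5 (8.94).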

How the data were processed

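Aortas of 3 eNOS-deficient samples and 3 wild-type samples were each read on 1 Affymetrix array, with 300 ng of RNA labelled per the labels' protocols. The deposited log2 values came from RMA in Affymetrix Expression Console 1.3.1, per the submitters' processing notes, and were used as deposited, so probe summary was not repeated. The number of arrays limits the precision: the median standard error of a difference was 0.156.

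Of 41345 probe sets, 23525 carried exactly 1 gene symbol in the platform annotation, 1810 several and 16010 none. Genes averaging below 4.38, the level that 25 percent of probe sets do not reach, were left out. The genotypes were compared with limma 3.58.1 in R 4.3.3 (lmFit, eBayes, two-sided, no covariates), with Benjamini-Hochberg adjustment over 18008 genes, after a check on simulated data. Sequences are RefSeq's. The planned comparison of protein sequences was not run. Plots used matplotlib 3.10.9.

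The members and lists were chosen with earlier results of these data known. Named are all members, Nos3 and the 3 smallest p-values of each pathway list. Markers named singly were picked after their values were seen. Alternatives were other filters, variance models, probe set rules, scalings, array weights, marker covariates, each array left out and, added after seeing the data, eNOS-deficient 11 and wild type 5 left out together.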

Additional observations from a re-analysis of the deposited data

How the results depend on the processing

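No paired analysis was possible because the genotypes share no sample numbers. No gene of the 32 reached an adjusted p under 0.05 in limma under any alternative run (lowest 0.0756, with array weights). With all arrays, 5 did so before adjustment. None of the 10 genes without overlap changed sign under any alternative run. Lack of overlap fixes that sign when arrays are left out or weighted, so those runs could not change it. Of all 32 genes, 9 changed sign with squamous epithelium markers as a covariate, 7 with brown adipocyte markers and 5 without wild type 5. The number was also 9 without eNOS-deficient 11 and wild type 5. Calls over all genes were 5, and 3 with no dim filter, 2 with probe sets averaged per gene, 2 after repeated quantile normalization, 119 with array weights, 8 at an adjusted p under 0.10 and 0 to 6 leaving out 1 array. The median difference of the 32 genes was positive throughout, from 0.023 (brown adipocyte markers as a covariate, or eNOS-deficient 11 and wild type 5 left out) to 0.18 with arrays centred on their medians. It ran from 0.032 to 0.15 leaving out 1 array, lowest without wild type 5. For all genes the median was 0.036 with the brown adipocyte covariate, 0.0069 without both arrays and 0.10 with centred arrays. Positive genes numbered 18 of 32 without both arrays (all genes, 51.2%) and 18 with squamous epithelium markers (48.5%). With centred arrays they numbered 29 (67.8%). Genes higher at an unadjusted p under 0.05 numbered 3 after repeated quantile normalization (all genes, 6.19%), 1 with brown adipocyte (2.71%) and 1 with squamous epithelium markers (7.98%) as a covariate, 3 without eNOS-deficient 11 and wild type 5 (9.47%), and 2 to 6 leaving out 1 array (4.96% to 8.93%). Genes lower at that level numbered 1 with an intensity trend (all genes, 3.32%), 1 after repeated quantile normalization (2.69%), 1 with array weights (7.22%), 3 with squamous epithelium markers (5.82%), 3 without eNOS-deficient 11 and wild type 5 (6.20%), and 0 to 2 leaving out 1 array (2.38% to 5.93%). Genes higher without overlap numbered 9 to 15 leaving out 1 array (all genes, 16.8% to 19.5%), 15 without eNOS-deficient 19 or wild type 2. Genes lower without overlap numbered 0 with arrays centred on their medians (all genes, 3.75%), 8 without eNOS-deficient 11 and wild type 5 (22.4%), and 1 to 7 leaving out 1 array (9.56% to 16.2%). Fewer arrays leave fewer ways to overlap; other causes were not tested.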
